A study of Mus musculus with 4 samples.

Results

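Hox genes encode homeodomain transcription factors, and in mammals they lie in 4 clusters named HoxA, HoxB, HoxC and HoxD. Within a cluster, genes are numbered by paralog group, and their order along the chromosome follows the order in which they act from head to tail in the embryo. In blood, Hox genes are most active in stem and progenitor cells and are normally shut down as cells mature. Some of them, Hoxa9 together with its cofactor Meis1 above all, are well known for driving leukemia when they stay on. Trithorax and MLL proteins keep Hox genes active, and Polycomb proteins keep them silent.

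The Hox genes were taken as every symbol in the deposited table made of Hoxa, Hoxb, Hoxc or Hoxd and a number. They were 39 of 24561 gene symbols, measured by 45 of 55681 probes. A single probe measured 33 of them, and 2 probes measured each of the other 6. They were examined in L1210, a mouse lymphocytic leukemia line from a DBA background. The 4 lines were L1210-control and the variant lines L1210-Fbxw11a, L1210-Fbxw11c and L1210-Fbxw11d. All were named among the stable lines sorted for GFP after viral infection, and what virus the control line received is not given in the sources used here. Wherever 4 values follow each other, they are in this order of lines, and 3 values are those of the variant lines. Fbxw11 is the F-box subunit of a ubiquitin ligase. Per the paper, Fbxw11a is the complete transcript, Fbxw11c lacks exon 2, and Fbxw11d lacks exons 2 and 3.

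Each line was measured on 1 Agilent mouse array, so the differences could not be set against replicates and no p-value is given. Each array was scaled to its 75th percentile, signals are printed as they would read on the control array, and ± is the error of the scanner software for the spot. A probe was measured where the software flagged it well above background. The lowest such signals were 18.1, 14.4, 14.9 and 10.4 on this scale, so most Hox signals below 60 lay near the limit. Slide 2 held only the L1210-Fbxw11d array, and slide 1 the others. In L1210-Fbxw11d a slide difference cannot be told apart from the variant. After scaling, the 8 brighter spike-in probes lay at -0.58 ± 0.086 (SD over probes, log2) in L1210-Fbxw11d relative to the control, against 0.13 and 0.16 in L1210-Fbxw11a and L1210-Fbxw11c. The 2 probes for Fbxw11 had log2 ratios to control of 0.31, 0.27 and 0.03 and of 0.21, 0.22 and 0.18. Their positions, from base 3692 and base 3803, are near the 3′ end of the transcript and outside exons 2 and 3, and whether the introduced transcripts carry that stretch is not given in the sources used here, so they did not check the labels.

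Of the 39 Hox genes, 17 lay well above background on all 4 arrays, 5 on only some and 17 on none. Over all gene symbols tested, 66.3% were well above background on all 4 arrays, compared with 43.6% of the Hox genes. HoxB had the highest share, with 7 of 10 genes on all 4 arrays, and HoxD the lowest, with 2 of 9. HoxA had 4 of 11, and HoxC had 4 of 9. The number of Hox genes above background was 21, 20, 18 and 18 in the 4 lines.

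Position within the cluster also divided the genes. Of the 15 central genes, which are paralog groups 4 to 8, 13 were above background on all 4 arrays and 14 on some or all, the exception being Hoxa5. Of the 8 anterior genes of groups 1 to 3, only Hoxb3 was above background on all 4 arrays. Of the 16 posterior genes of groups 9 to 13, only Hoxa9, Hoxb9 and Hoxc12 were. All 4 genes of group 4, all 3 of group 6 and both of group 7 were above background in every line. By the looser flag of the scanner software for a positive and significant signal, 6 of 8 anterior, 14 of 15 central and 9 of 16 posterior genes were detected on some or all arrays, and 7 of 9 in HoxD.

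**Figure D1:**
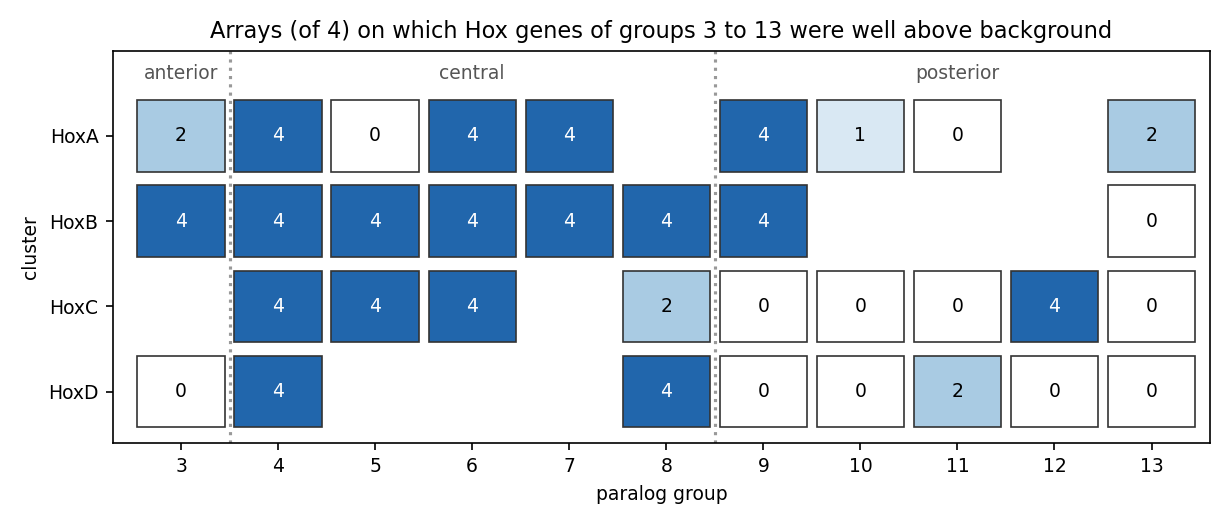
Each box is a Hox gene of groups 3 to 13, placed by cluster (rows) and paralog group (columns), and the number and shade give the arrays, out of 4, on which it was well above background. The dark boxes lie mostly in the central groups 4 to 8, where 13 of 15 genes were above background on all 4 arrays.

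Among the central and posterior genes, those above background on none of the arrays were Hoxa5 and Hoxa11 in HoxA, Hoxb13 in HoxB, Hoxc9, Hoxc10, Hoxc11 and Hoxc13 in HoxC, and Hoxd9, Hoxd10, Hoxd12 and Hoxd13 in HoxD. A probe below background gives only an upper limit on the transcript, so these genes may still be transcribed at a low level.

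Among the posterior genes, Hoxd11 and Hoxa10 had the largest differences from control, and both lay lower in all 3 variant lines. Hoxd11, which with Hoxa11 patterns the forearm in the embryo, gave signals of 142.0 ± 14.6, 22.7 ± 3.67, 6.01 ± 3.12 and 2.08 ± 2.09, and those in L1210-Fbxw11c and L1210-Fbxw11d were not well above background. It was thus 6.25-fold lower in L1210-Fbxw11a (log2 ratio -2.64, error 0.53) and at least 9.53-fold and 13.6-fold lower in the other variant lines. These values came from 1 of the 2 Hoxd11 probes, and the other was not above background in any line, so the difference rests on a single probe. The log2 ratios of the variant lines were -1.29, -1.66 and -2.18 with normexp correction and -1.50, -2.43 and -3.46 with the mean over both probes. The Hoxd11 probe lies at mm9 chr2:74522136-74522195 on the plus strand. It and the probe of Hoxc12, at mm9 chr15:102768889-102768948 on the plus strand, are shown because they were the only Hox probes with a reading frame of 19 codons that runs to a stop codon at the 3′ end of the probe, given in capitals. Whether that frame is the coding one was not examined.
Hoxd11: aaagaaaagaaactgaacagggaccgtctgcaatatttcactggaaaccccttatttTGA
Hoxc12: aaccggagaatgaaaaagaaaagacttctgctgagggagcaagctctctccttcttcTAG

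Hoxa10, known for its roles in the uterus and in blood progenitors, gave 53.6 ± 6.59 in L1210-control. Its signals of 3.15, 3.20 and 2.08 in the variant lines were not well above background. The control line was therefore the only line in which Hoxa10 was measured, and its level was at least 3.73-fold, 3.60-fold and 5.14-fold lower in the variant lines. Its log2 bounds of -1.90, -1.85 and -2.36 each had an error of 1.46, within 2 errors of no difference. Its 1 probe lies at mm9 chr6:52181922-52181981 on the minus strand.

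Hoxa13, which acts in the digits and the urogenital tract, gave 23.5 ± 4.51 in L1210-control and 19.2 ± 3.75 in L1210-Fbxw11a, and 10.8 and 8.42 in L1210-Fbxw11c and L1210-Fbxw11d, both not well above background. It was at least 1.58-fold lower than control in L1210-Fbxw11c and at least 2.25-fold lower in L1210-Fbxw11d (log2 bound -1.17, error 0.996), and the latter is within 2 errors of no difference. The other Hoxa13 probe was not above background in any line (6.35, 5.26, 3.17 and 2.08). Hoxc12, the only posterior HoxC gene measured, gave 31.0 ± 5.21, 27.5 ± 4.35, 25.9 ± 4.24 and 11.3 ± 2.37 in the 4 lines. It was 2.74-fold lower in L1210-Fbxw11d (log2 ratio -1.45, error 0.87), which is within 2 errors of no difference.

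Hoxa9, the Hox gene most often tied to leukemia, was measured in every line by both of its probes. The brighter probe gave 94.8 ± 10.3, 92.6 ± 9.77, 95.6 ± 10.1 and 49.5 ± 5.38, and the other gave 88.9, 75.7, 80.2 and 64.9. Both probes were lowest in L1210-Fbxw11d, with log2 ratios of -0.94 (error 0.38) and -0.46 (error 0.38), and neither reached a 2-fold difference. Hoxb9, which acts in patterning of the ribs, gave 910, 703, 883 and 941 and differed by 1.34-fold at most.

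The central HoxA genes did not move together. Hoxa4 gave 58.9 ± 6.997, 88.5 ± 9.34, 87.4 ± 9.25 and 135.8 ± 13.7, lowest in L1210-control, and L1210-Fbxw11d was 2.31-fold higher than control (log2 ratio 1.21, error 0.26). It was the only Hox gene at least 2-fold higher than control in any line. Hoxa6 gave 56.3 ± 6.71, 66.1 ± 7.24, 67.4 ± 7.42 and 33.9 ± 3.98, so that the L1210-Fbxw11d line lay below the other lines (log2 ratio to control -0.73, error 0.38). Hoxa7, which like Hoxa9 is a target of MLL proteins, gave 25.4, 27.0, 27.0 and 25.6, the smallest spread of any measured Hox gene (1.06-fold), although its error was 0.61 to 0.75 on the log2 scale.

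HoxB had an unbroken run of measured genes, from Hoxb3 to Hoxb9. Hoxb4, known for expanding blood stem cells when overexpressed, gave 1527 ± 153, 1410 ± 141, 1565 ± 157 and 1628 ± 163 in the 4 lines. Hoxb7 gave 4570 ± 457, 4559 ± 456, 4557 ± 456 and 4054 ± 405. In both genes the ratios to control stayed within the scanner error. Hoxb5, a marker of long-term blood stem cells, gave 125.6, 141.1, 124.0 and 162.6, and Hoxb6 gave 1262, 1036, 1329 and 1546. In both genes L1210-Fbxw11d had the highest signal, 1.31-fold over the lowest line for Hoxb5 and 1.49-fold for Hoxb6. Hoxb3 was measured by both of its probes, which gave 34.8, 38.3, 44.3 and 52.4, and 39.1, 42.4, 37.8 and 43.4, with no ratio to control beyond 2 errors.

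Hoxb8 was the exception in HoxB. This gene, which blocks myeloid maturation when overexpressed, gave 172.1 ± 17.6, 270.7 ± 27.2, 177.5 ± 18.04 and 99.3 ± 10.1. Its log2 ratio to control was 0.65 in L1210-Fbxw11a and -0.79 in L1210-Fbxw11d, each with an error of 0.21, and 0.05 in L1210-Fbxw11c. L1210-Fbxw11a and L1210-Fbxw11d thus lay on opposite sides of control, 2.73-fold apart. Scaled on the spike-in probes, an alternative chosen after seeing the data, the L1210-Fbxw11d ratio was -0.21 for Hoxb8 and 0.67, 0.87 and 0.63 for Hoxb4, Hoxb6 and Hoxb9, so that Hoxb8 came within 2 errors of no difference and the others lay beyond them.

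**Figure D2:**
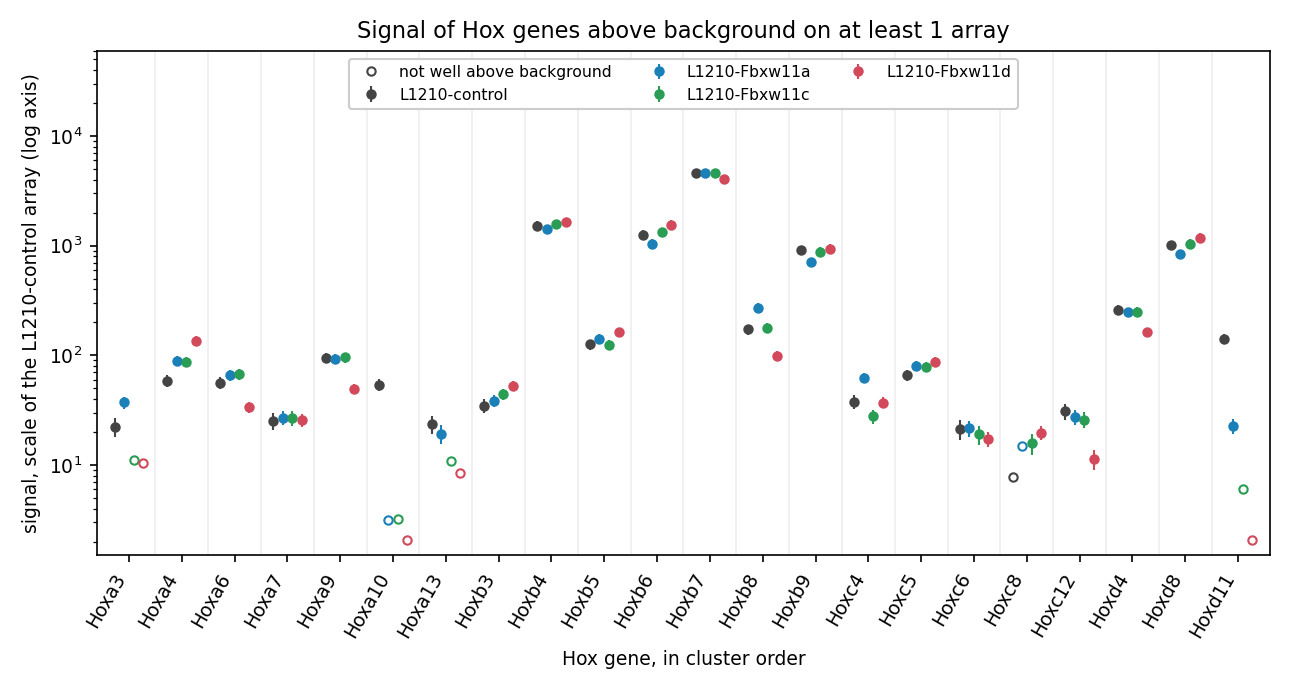
Points give the signal of each Hox gene measured on any array, by line, on a log axis with scanner errors as bars, and open points were not well above background. Heights of different genes rest on different probes and cannot be compared. Hoxa10 and Hoxd11 show open points far below the control point, while Hoxb4 and Hoxb7 lie almost level across the 4 lines.

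In HoxC, Hoxc4, a gene active in lymphocytes, gave 37.7 ± 5.30, 62.3 ± 6.88, 27.7 ± 4.22 and 37.1 ± 4.26, highest in L1210-Fbxw11a (log2 ratio 0.72, error 0.34). It was 2.25-fold higher in L1210-Fbxw11a than in L1210-Fbxw11c (log2 ratio 1.17, error 0.59), within 2 errors of no difference. Hoxc5 gave 66.0, 80.2, 78.9 and 86.8, and Hoxc6 gave 21.3, 21.7, 19.0 and 17.1. Hoxc8, which acts in the thoracic skeleton, was measured in L1210-Fbxw11d at 19.7 ± 2.87 and in L1210-Fbxw11c at 15.7 ± 3.46, with 7.82 and 14.9 in L1210-control and L1210-Fbxw11a. All 4 of its signals lay close to the limit, and a difference between lines was not detectable at this signal.

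In HoxD, Hoxd4 and Hoxd8 were the genes measured in every line. Hoxd4, a gene of the hindbrain and neck, gave 259.5 ± 26.3, 247.0 ± 24.9, 250.6 ± 25.3 and 162.4 ± 16.4, so that L1210-Fbxw11d alone was lower (log2 ratio -0.68, error 0.21). Hoxd8 gave 1005, 838, 1040 and 1175, and its ratios to control stayed within 2 errors. Under spike-in scaling the L1210-Fbxw11d ratio was -0.10 for Hoxd4 and 0.81 for Hoxd8, the latter beyond 2 errors. Among the anterior genes, Hoxa3, which is needed for the thymus, gave 22.2 ± 4.37 in L1210-control and 37.2 ± 4.77 in L1210-Fbxw11a and was not well above background in L1210-Fbxw11c (11.1) or L1210-Fbxw11d (10.4). The latter line was at least 2.13-fold below control (log2 bound -1.09, error 0.996), within 2 errors of no difference. The other Hoxa3 probe was not above background in any line (3.67, 2.88, 2.96 and 2.52), and with the mean over both probes the log2 ratio was -0.82.

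The threshold of a 2-fold change, taken from the methods of the study, was then applied to Hox probes measured on 1 or both of the arrays compared. In L1210-Fbxw11a against control, 2 of 23 Hox probes passed it, both lower (Hoxd11 and Hoxa10), while 5.13% of all probes tested passed it, 2.71% higher and 2.41% lower. In L1210-Fbxw11c, 2 of 24 passed, again Hoxd11 and Hoxa10, against 4.46% of all probes, 1.7% higher and 2.76% lower. In L1210-Fbxw11d, 6 of 24 passed, with Hoxa4 higher and Hoxd11, Hoxa10, Hoxa13, Hoxa3 and Hoxc12 lower, against 6.95% of all probes, 1.01% higher and 5.93% lower. The 3 comparisons share the control array. Hoxa13 and Hoxa3 in L1210-Fbxw11d fell short of 2-fold under quantile normalization (log2 ratios -0.97 and -0.89). With normexp correction, Hoxa4 (0.55) and Hoxc12 (-0.73) in that line and Hoxa10 in L1210-Fbxw11a (-0.75) and L1210-Fbxw11c (-0.79) fell short. Of the 5 Hox genes lower in L1210-Fbxw11d, 4 have only bounds, because they were not above background there. Dimmer probes varied more. Spots of the same probe had a median SD of 0.84 on the log2 scale in L1210-Fbxw11d and 0.53 in L1210-control at signals of 10 to 30, compared with 0.12 and 0.072 at 100 to 1000.

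Between the variant lines, 2 of 23 Hox probes differed 2-fold or more in L1210-Fbxw11a against L1210-Fbxw11c (Hoxa3 and Hoxc4, both higher in L1210-Fbxw11a), with 4.93% of all probes. In L1210-Fbxw11a against L1210-Fbxw11d, 4 of 23 did (Hoxd11, Hoxb8, Hoxa3 and Hoxc12, all higher in L1210-Fbxw11a), with 7.3% of all probes. In L1210-Fbxw11c against L1210-Fbxw11d, only Hoxc12 of 20 did, again lower in L1210-Fbxw11d, with 5.25% of all probes. Both Hoxc12 ratios, 1.28 and 1.20 on the log2 scale with an error of 0.997, were within 2 errors of no difference. So was the Hoxd11 bound of 1.12 in L1210-Fbxw11a against L1210-Fbxw11d, taking the spread between spots, also 0.997. The scanner error of 1.47 for Hoxd11 came from the undetected signal and is not that of the bound.

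Over the 17 Hox genes measured on all 4 arrays, the median log2 ratio to control was 0.028, 0.036 and 0.0079, beside 0.0050, 0.021 and 0.048 over 16246 gene symbols measured on all 4. These genes did not shift together in any line. Ratios ranged from -0.37 to 0.72, from -0.45 to 0.57 and from -1.45 to 1.21 in the variant lines. The highest and lowest line of a gene differed by a median of 0.58 on the log2 scale for the Hox genes and 0.35 for all genes. Beyond 2 errors, with the error taken as the larger of scanner error and spot spread, lay 2 of the 17 in L1210-Fbxw11a (Hoxb8 and Hoxc4, higher), 0 in L1210-Fbxw11c, and 4 in L1210-Fbxw11d (Hoxa4 higher, and Hoxa9, Hoxb8 and Hoxd4 lower). The shares over all genes were 9.41%, 8.94% and 16.5%. Hoxa9 in L1210-Fbxw11d came within 2 errors with normexp correction, quantile normalization, median centring and the authors' values. Beyond 2 errors higher in that line lay 4 of the 17 with quantile normalization and the authors' values and 6 with median centring. Spike-in scaling raised every Hox ratio of that line by 0.58, which brought all 3 lower genes within 2 errors (Hoxa9 at -0.36) and put 8 of the 17 beyond 2 errors higher, beside 71.2% of all genes beyond 2 errors. Normexp correction brought Hoxc4 in L1210-Fbxw11a within 2 errors, at 0.29. In that line spike-in scaling left Hoxb8 higher, also brought Hoxc4 within 2 errors and put Hoxb6 and Hoxb9 beyond them lower.

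**Figure D3:**
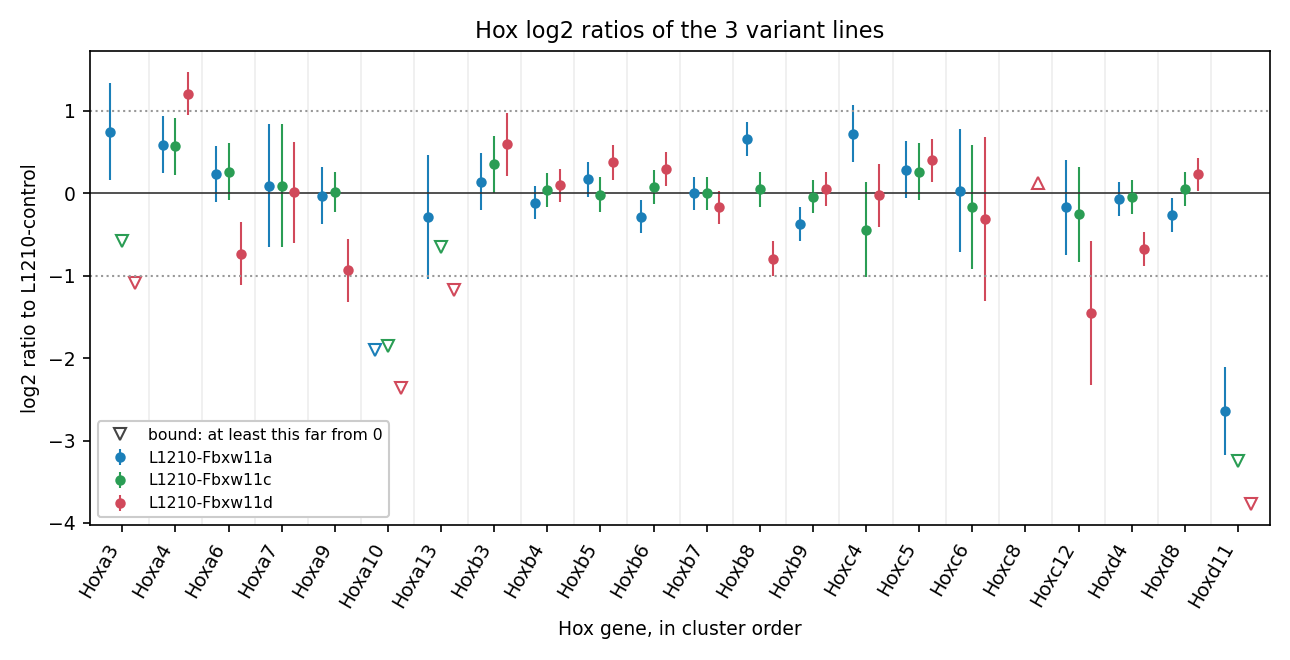
Points give the log2 ratio of each variant line to L1210-control for Hox genes measured on at least 1 array, bars the larger of scanner error and spot spread, and open triangles bounds where 1 array was not above background. For a bound, the scanner error is that of the undetected signal and not of the detection limit. Dotted lines mark a 2-fold difference. Hoxd11 and Hoxa10 lie below the lower line in all 3 variant lines, and Hoxa4 in L1210-Fbxw11d is the only point above the upper line.

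Transcripts named for a Hox gene with a suffix were kept apart. Hoxb5os, a noncoding transcript named for Hoxb5 and probed on the opposite strand, gave 78.0 ± 8.86, 28.3 ± 4.52, 44.4 ± 5.51 and 35.2 ± 4.09. All 3 variant lines lay below control, with log2 ratios of -1.46, -0.81 and -1.15, whereas Hoxb5 itself had 0.17, -0.02 and 0.37. The Hoxb5os probe, at mm9 chr11:96152394-96152453 on the minus strand, lies between the probes of Hoxb7 and Hoxb6 (from 96151211 and 96162563). The Hoxb5 probe lies further on, from 96167130. Hoxb7 had log2 ratios of -0.003, -0.004 and -0.17, and Hoxb6 had -0.29, 0.07 and 0.29. The Hoxb5os probe is shown because its ratios moved apart from those of Hoxb5 and of these neighbours.
Hoxb5os: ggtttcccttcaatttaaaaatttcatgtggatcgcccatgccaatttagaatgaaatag
Hoxa11os gave 47.2, 52.1, 37.3 and 53.1 although Hoxa11 was not above background in any line, and 1 Hoxd3os1 probe gave 70.6, 70.0, 60.6 and 71.6 although Hoxd3 was not. The other Hoxd3os1 probe was not above background in any line either, at 4.05, 3.36, 3.39 and 2.08, so the probes of this transcript disagreed.

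Promoter sequence from RefSeq (GRCm38.p6, 250 bases before the start) was matched by symbol for 22 of the 39 Hox genes, as 24 promoters. It was searched on both strands for the TATA box (TATAAA), the CCAAT box, the GC box (GGGCGG) and the composite site of Pbx with Hox proteins (written TGATTNAT, with N any base). CCAAT was in 58.3% of Hox promoters and 33.8% of all 32851 promoters, GGGCGG in 41.7% and 32.7%, TATAAA in 16.7% and 12.4%, and the Pbx-Hox site in 8.33% and 2.82%. The Hox promoters had a median observed over expected CpG ratio of 0.72, and all promoters 0.37. The starts of Hoxa10 and Hoxd11 are shown because these genes differed most between lines, with matches to the motifs in capitals. RefSeq lists 2 starts for each, and the start with more matches is printed. The other Hoxd11 start, at chr2:74679308-74679557, held none of the 4 motifs, and the other Hoxa10 start, at chr6:52240855-52241104, held GGGCGG and none of the rest. A match is a description of the letters and not a site in use.
Hoxa10 start at GRCm38.p6 chr6:52234940-52235189, minus strand: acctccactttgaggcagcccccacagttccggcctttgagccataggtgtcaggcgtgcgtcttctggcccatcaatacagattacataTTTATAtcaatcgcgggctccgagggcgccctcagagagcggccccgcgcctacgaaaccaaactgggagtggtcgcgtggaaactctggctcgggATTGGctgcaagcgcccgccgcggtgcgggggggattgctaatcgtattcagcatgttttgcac
Hoxd11 start at GRCm38.p6 chr2:74682073-74682322, plus strand: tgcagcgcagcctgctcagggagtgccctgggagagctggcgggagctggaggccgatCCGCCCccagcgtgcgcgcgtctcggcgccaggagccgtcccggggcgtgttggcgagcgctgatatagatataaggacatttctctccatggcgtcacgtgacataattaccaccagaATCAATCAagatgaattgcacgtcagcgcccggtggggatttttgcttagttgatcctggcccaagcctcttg

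Proteins that partner and regulate Hox genes were read beside them. Over all probes tested, 5.13%, 4.46% and 6.95% passed 2-fold in the variant lines. Over all gene symbols, 66.3% were above background on all 4 arrays. The counts of each list are to be read beside these shares. Of 11 Hox cofactors of the TALE homeodomain class, 9 were measured on all 4 arrays, and Meis1 gave 1002, 1070, 1134 and 1014. Meis2 (log2 ratios 0.16, 0.35 and 0.27) and Pbx3 (0.10, 0.26 and 0.34) stayed under 2-fold.

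All 15 trithorax and MLL complex genes and all 20 Polycomb genes on the array were measured on all 4 arrays. No probe of either list, of 23 and 35 probes, passed 2-fold in any variant line. At the shares over all probes few passes were due in lists of this size, so unusual stability was not shown. In the former list the members with the largest ratios were Kmt2a, which encodes MLL (log2 ratios -0.20, -0.03 and -0.65), Mllt3 (0.33, 0.40 and 0.50) and Dot1l, an H3K79 methyltransferase (0.18, 0.28 and 0.30). In the latter they were Jarid2 (0.16, 0.42 and 0.40), Phc1 (0.02, 0.25 and 0.37) and Rnf2 (0.35, 0.17 and 0.36).

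Of 13 other upstream regulators, 8 were measured on all 4 arrays, and Cdx2, Cdx4 and Cyp26a1 on none. Of the 13 probes tested in each variant line, 2, 1 and 2 passed 2-fold. Zbtb16, a transcriptional repressor also called PLZF, gave 56.4, 43.0, 34.8 and 13.2, and the retinoic acid receptor Rarb gave 51.9, 51.3, 43.9 and 13.9. Both passed 2-fold lower in L1210-Fbxw11d (log2 ratios -2.095 and -1.91, scanner error 0.32 each). Their signals there lay near the limit of that array, 10.4, where spots of the same probe had a median SD of 0.84. Spike-in scaling raises ratios of that line by 0.58 and is given here for the Hox genes only. Cdx1, a caudal-type activator of Hox genes, gave 36.0, 75.5, 41.5 and 44.9 and passed 2-fold higher in L1210-Fbxw11a, as did Gfi1, which was not above background in control. Aldh1a2, which makes retinoic acid, was higher in L1210-Fbxw11c.

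Of 9 genes known downstream of Hoxa9 and Meis1, 6 were measured on all 4 arrays, and Myb and Lmo2 on none. In the variant lines 1 of 14, 0 of 12 and 3 of 13 probes tested passed 2-fold. Flt3, a receptor tyrosine kinase, gave 65.1, 61.8, 56.0 and 30.2, with a log2 ratio of -1.11 in L1210-Fbxw11d. Id2 gave log2 ratios of 0.65, 0.72 and 0.93, and the brightest Igf1 probe -0.08, -0.20 and -0.08. A dimmer Igf1 probe was past 2-fold lower in L1210-Fbxw11d, and 1 of the Erg probes was above background only in L1210-Fbxw11a.

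Of 12 neighbours of the clusters on the array, 11 were measured on all 4 arrays. In the variant lines 1 of 16, 1 of 15 and 1 of 15 probes tested passed 2-fold. Calcoco2, on the Hoxb13 side of HoxB, gave 309.4, 379.6, 90.7 and 60.9, past 2-fold lower in L1210-Fbxw11c and L1210-Fbxw11d, while its other probe had log2 ratios of -0.21 and -0.54 there. Evx2, next to Hoxd13, gave 992, 1006, 963 and 669, and Ttll6 gave 138.6, 184.7, 173.2 and 161.7. A probe of Smug1 was above background only in L1210-Fbxw11a.

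**Figure D4:**
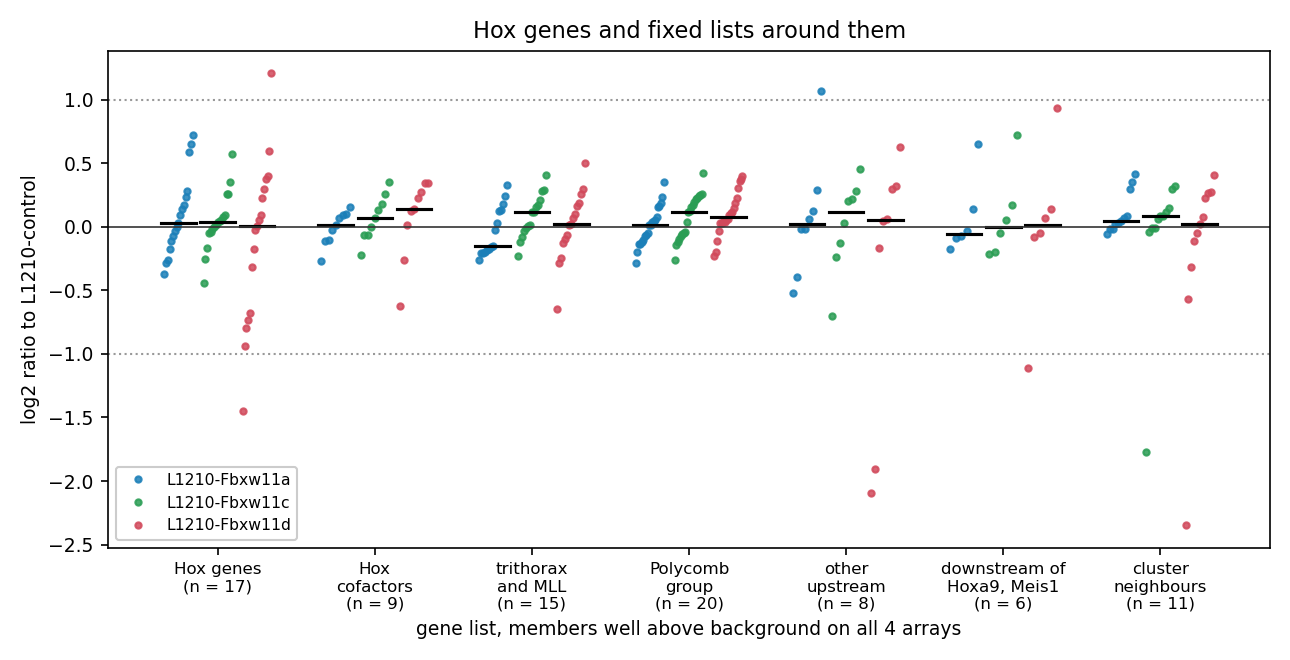
Each point is the log2 ratio to L1210-control of a gene measured on all 4 arrays, by list and line, with the median as a black bar and dotted lines at a 2-fold difference. Trithorax and Polycomb genes all lie between the dotted lines. Of the 3 variant lines, L1210-Fbxw11d is the one in which the Hox genes spread widest, from -1.45 to 1.21. The Hox genes were not the widest list there. Other upstream regulators ran from -2.095 to 0.63 and cluster neighbours from -2.35 to 0.41.

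Markers of other lineages were read beside the 66.3% of all gene symbols that were above background on all 4 arrays. Among the 8 B lineage markers, 6 were measured on all 4 arrays and Cd79b and Ebf1 on none. Among the 8 T lineage markers, 6 were measured and Cd3d and Cd3g on none, and 5 of 8 myeloid markers were measured on all 4, with Lyz2 and Fcgr3 on none. Summed signals of the lists ranged over the 4 lines from 18779 to 23606 (B lineage), 5250 to 5640 (T lineage), 51207 to 67248 (myeloid), 132 to 264 (erythroid, 2 of 4 genes on all 4 arrays) and 33108 to 38637 (fibroblast and stroma, 5 of 8 genes on all 4 arrays). Hbb-b1 and Pdgfrb were above background on no array. The marker Hba-a1 was 2-fold or more higher in all 3 variant lines (78.2, 171.2, 165.4 and 169.7), as was Col1a2 (888, 2419, 3825 and 3702). A Csf1r probe was past 2-fold lower in L1210-Fbxw11d, the line in which most Hox genes passed. Whether the make-up of the lines had a part in the Hox differences was not tested.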

How the data were processed

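Cy3-labelled RNA of 4 L1210 lines was hybridised to Agilent arrays, 1 for each line. The authors deposited the Feature Extraction output of each array, with background-corrected signal intensity and flags per spot, and 1 table of linear intensity, normalized log2 values and detection flags. The deposited file headers name software version 10.7.1.1 and build mm9, and the submitters' processing notes name version 9.1. The normalization of the deposited log2 values is not given in the sources used here.

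Here log2 of the processed intensity minus the 75th percentile of its array was used. Spots called outliers, 102 to 167 on an array, were dropped, and the spots of each probe were then averaged. No probe was saturated. A probe was measured if a share of 0.5 or more of its spots carried the flag for well above background. A gene was above background on an array if any of its probes was. For ratios, medians and named signals, the brightest probe stood for a gene that has several. Where 1 array of a pair was not above background, the fold is a bound against the probe's own signal there or the detection limit of the array, whichever was higher; the limit is the dimmest probe flagged on all of its spots. This step was tested on simulated data. Anterior, central and posterior are paralog groups 1 to 3, 4 to 8 and 9 to 13. Every Hox gene above background anywhere was named with its values, and from each list the 3 members with the largest ratio among those on all 4 arrays, plus members past 2-fold in all 3 lines. Other list members are named because their probe passed 2-fold, and Meis1 as the partner of Hoxa9, chosen after their values were seen. Some members of these lists are not reported here by name. The Hox genes and the lists were chosen with earlier results of these data known. Alternatives were normexp correction (limma 3.58.1, R 4.3.3, offset 50), quantile normalization, median centring, the authors' normalized values, flagged spots kept, other filters, other detection rules, thresholds of 1.5 and 3, the mean over probes, limits for dim genes and, chosen after seeing the data, scaling on spike-in probes. Computations used Python 3.11.15, numpy 2.4.6 and pandas 2.3.3. With 1 array for each line, precision is limited by that number.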

Additional observations from a re-analysis of the deposited data

Results flagged for a closer look

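Hoxb8 lay on opposite sides of L1210-control in a pair of variant lines, each by more than 2 errors. Its log2 ratio to control was 0.65 in L1210-Fbxw11a and -0.79 in L1210-Fbxw11d. Each line has 1 array, so the difference was not tested. Its cluster neighbours Hoxb7 and Hoxb9 had log2 ratios of -0.17 and 0.05 in L1210-Fbxw11d.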

How the results depend on the processing

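No paired analysis was possible because each line has 1 array, and for the same reason no replicate could be left out. Counts of Hox probes past 2-fold are given here as L1210-Fbxw11a, L1210-Fbxw11c and L1210-Fbxw11d against control, then Fbxw11a against Fbxw11c, Fbxw11a against Fbxw11d, and Fbxw11c against Fbxw11d. They were 2, 2, 6, 2, 4 and 1 as reported. With normexp correction, whose offset draws ratios of dim probes toward 0, they were 1, 1, 2, 0, 1 and 0. With probes well above background on both arrays they were 1, 0, 2, 1, 2 and 1, and with no filter on dim probes 2, 6, 11, 3, 8 and 4. At 1.5-fold they were 6, 3, 11, 4, 10 and 6, and at 3-fold 2, 2, 2, 0, 1 and 0. With spike-in scaling, chosen after seeing the data, they were 2, 2, 4, 2, 7 and 4. Quantile normalization, median centring, the authors' values and flagged spots kept stayed within 1.5 times of the reported counts.

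The median log2 ratio of the Hox genes in L1210-Fbxw11d was 0.59 with spike-in scaling, where that of all genes was 0.63, and elsewhere each line's median stayed within the error of a gene. The sign of these medians near 0 turned under several settings. Median centring moved the median of all genes to 0.26 in L1210-Fbxw11d. No Hox ratio past 2-fold changed sign under any alternative. Of these 10 ratios, 8 stayed past 2-fold with quantile normalization, median centring and the authors' values, 7 with spike-in scaling and 4 with normexp. Hoxd11 passed 2-fold in all 3 lines under each of these scalings and corrections, and Hoxa13 and Hoxa3 in L1210-Fbxw11d were the ratios lost with quantile normalization. Detection was the same with the authors' flag, every spot required, or flagged spots kept. With every probe of a gene required, Hox genes above background fell from 22 to 19 on any array and from 21 to 18 in control, posterior genes from 6 to 4 and anterior genes from 2 to 1, while 17 stayed on all 4 arrays. With the looser flag, 22 Hox genes were above background on all 4 arrays and 29 on any. Dim genes are limited by how near their signals lie to background.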

Other observations

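The spans between the outermost Hox probes of each cluster held 38 other probes in mm9, and 21 of them were well above background on some or all arrays. HoxB held 22 of these, 14 of which were above background, compared with 2 of 5 in HoxA, 2 of 6 in HoxC and 3 of 5 in HoxD. Of all probes, 62.5%, 66.0%, 64.3% and 68.7% were well above background on the 4 arrays taken singly. The HoxB count therefore does not stand out from probes in general. A probe of an intergenic transcript in HoxB at mm9 chr11:96114843-96114902 gave 94.1, 57.0, 24.4 and 22.5 in the 4 lines, with log2 ratios to control of -0.72, -1.95 and -2.06. Another probe on the same strand of that transcript gave 540, 669, 660 and 556, so the probes disagreed. The HoxA transcript 2700086A05Rik was above background only in L1210-Fbxw11c, at 48.6. Of the 5 probes named for HOTAIR in HoxC, 1 gave 307, 333, 213 and 320, and the other 4 were above background on no array, so the probes disagreed.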
